A study of Saccharomyces pastorianus with 12 samples.

Results

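The 10 genes described here encode the mitochondrial enzymes of the tricarboxylic acid (TCA) cycle other than succinate dehydrogenase. They are CIT1, ACO1, IDH1, IDH2, KGD1, KGD2, LSC1, LSC2, FUM1 and MDH1. They were taken as the probe sets that the platform annotation assigns to these gene names. Each gene had 1 probe set, and all 10 were among the 5503 Saccharomyces cerevisiae genes tested, out of 10928 probe sets on the array. RNA was drawn from CB11, a strain of the lager yeast Saccharomyces pastorianus, during a brewery propagation, the oxygenated stage in which yeast is grown up before fermentation. The 4 groups are the sampling times, each with 3 arrays lettered A, B and C. The 0h samples were drawn right after the yeast, grown aerobically in a smaller vessel, entered the main vessel, and the others 4h, 8h and 30h later. All groups share the strain and 1 wort of malt with maltose adjunct and added zinc sulphate, kept at a constant temperature and supplied with oxygen. Nothing in the labels makes the triplicates separate propagations. The p-values therefore set differences against the spread among samples of a time, and that spread may be only technical. In the limma fits it is pooled for each gene over all 4 times, also where it differs between them.

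The TCA cycle oxidises the acetyl group of acetyl-CoA to carbon dioxide in the mitochondrial matrix and passes the electrons to the respiratory chain as NADH and reduced flavin. It also supplies 2-oxoglutarate for glutamate and oxaloacetate for aspartate, so parts of it run even when yeast ferments. In S. cerevisiae, several of these genes are repressed by glucose, the Hap2-Hap3-Hap4-Hap5 complex activates many of them on respiratory carbon sources, and Rtg1 and Rtg3 support the early steps up to 2-oxoglutarate when respiration is impaired.

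The values are array signals on a log2 scale after quantile normalisation, so a level is relative to the other genes of its array. A difference of 1 is a doubling of the normalised signal. Before normalisation the SD of log2 signals over tested genes was 1.91 to 2.03 on the 0h and 4h arrays. It was 1.21 to 1.33 on the 8h and 30h arrays. Normalisation gives all arrays the same distribution, so folds between these 2 sets are not folds of deposited signal. Levels of different genes come from different probes and are not compared. A lower level because fewer cells express a gene cannot be told apart from less of its RNA per cell. All 120 member values exceeded the 95th percentile of the Schizosaccharomyces pombe probe sets of their array, RNA that the culture should not hold. The members' signal over that background had a median of 43.6-fold at 0h, 154-fold at 4h, 4.45-fold at 8h and 6.98-fold at 30h. For all tested genes the medians were 11.96, 19.8, 3.33 and 4.81. The lowest member values were 6.37, 49.2, 1.80 and 1.84.

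The 0h and 4h arrays differed from the 8h and 30h arrays in the whole pattern of signals, and Spearman's rho over genes between arrays of these 2 sets was 0.205 to 0.402. Array 0h A stood apart from 0h B and C, and its median 3′ to 5′ signal ratio over 8 control genes, which rises when labelled RNA is incomplete, was 35.5. The ratio was 6.96 on 0h C, 1.88 on 0h B and 1.30 to 2.02 on the later arrays. For 8 of the 10 members (80%) 0h A was the lowest of the 0h arrays, which was so for 44.8% of all tested genes. The part of these differences in the results below was not tested, and results that rest on 0h A are also given without it.

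All 10 genes had their highest mean at 4h. For CIT1, ACO1, IDH1, IDH2, KGD2, LSC1, FUM1 and MDH1 the order of the means was 4h, 0h, 8h and 30h. KGD1 and LSC2 departed from it. KGD1 had its lowest mean at 0h and LSC2 its lowest at 8h. The lowest place of 0h for KGD1 rests on 0h A: without it, 8h against 0h was at -0.10 and 4h against 0h at 0.77. KGD1 spanned the smallest range of time means, 0.98, and LSC1 the largest, 3.10. Within their arrays the genes stood at a median percentile of 80.3 among tested genes at 0h, 91.8 at 4h, 72.4 at 8h and 68.7 at 30h.

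**Figure D1:**
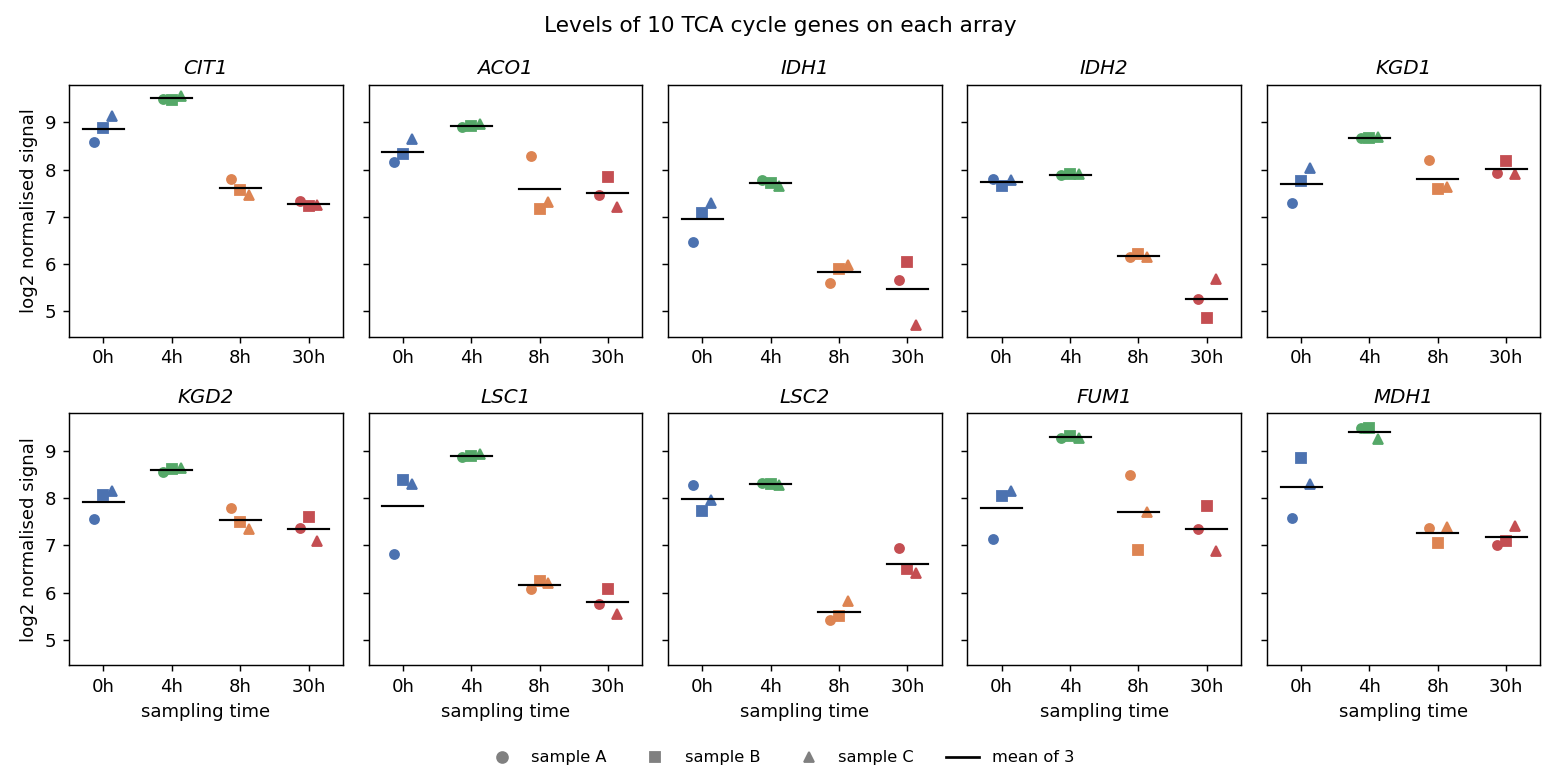
Quantile-normalised log2 signal (vertical axis) of each of the 10 genes at the 4 sampling times (horizontal axis), with 1 point per array, its shape giving the letter, and a bar at the mean of 3 arrays. The 4h arrays lie highest and close together for every gene, and LSC1 has the widest range of time means, 3.10, and KGD1 the narrowest, 0.98.

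CIT1 encodes citrate synthase, which joins acetyl-CoA to oxaloacetate at the entry of the cycle. Its levels on arrays A, B and C were 8.58, 8.87 and 9.14 at 0h, followed by 9.50, 9.48 and 9.55 at 4h. At 8h they were 7.80, 7.57 and 7.46, and the 30h arrays read 7.34, 7.24 and 7.26. The levels of the 4 times did not overlap, and the means differed between 4h and 0h and between 0h and 8h but not beyond the spread between 8h and 30h (limma adjusted p = 0.442).

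ACO1 encodes aconitase, the iron-sulphur enzyme that turns citrate into isocitrate. Its levels were 8.15, 8.33 and 8.65 at 0h, followed by 8.90, 8.91 and 8.97 at 4h. At 8h they were 8.28, 7.16 and 7.33, and the 30h arrays read 7.47, 7.84 and 7.21. Array 8h A lay within the 0h range, and the 30h arrays lay within the 8h range. In the order of its means, only 0h and 8h were neighbours that differed (adjusted p = 0.0287).

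IDH1 and IDH2 encode the subunits of the NAD-dependent isocitrate dehydrogenase, the regulatory one and the catalytic one. IDH1 was at 6.48, 7.09 and 7.30 at 0h, then 7.79, 7.73 and 7.66 at 4h, followed by 5.60, 5.89 and 5.99 at 8h and finally 5.67, 6.04 and 4.71 at 30h. IDH2 was at 7.81, 7.64 and 7.77 at 0h, then 7.89, 7.90 and 7.90 at 4h, followed by 6.16, 6.22 and 6.15 at 8h and finally 5.27, 4.85 and 5.68 at 30h. Both genes were higher on every early array than on any late one. The 30h arrays lay below the 8h arrays for IDH2 and on both sides of them for IDH1. For both genes the 0h and 4h means did not differ beyond the spread (adjusted p = 0.101 for IDH1 and 0.670 for IDH2).

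KGD1 encodes the E1 and KGD2 the E2 component of the 2-oxoglutarate dehydrogenase complex, which makes succinyl-CoA. KGD1 was at 7.28, 7.77 and 8.04 at 0h, then 8.67, 8.67 and 8.69 at 4h, followed by 8.20, 7.58 and 7.63 at 8h and finally 7.92, 8.18 and 7.92 at 30h. Its 4h arrays stood above all others, and the other 3 times overlapped. KGD2 was at 7.56, 8.06 and 8.16 at 0h, then 8.56, 8.61 and 8.63 at 4h, followed by 7.79, 7.49 and 7.36 at 8h and finally 7.36, 7.60 and 7.09 at 30h. No neighbouring means of KGD2 differed past the threshold (adjusted p = 0.0510, 0.170 and 0.713 from the highest down), although those farther apart did.

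LSC1 and LSC2 encode the alpha and beta subunits of succinyl-CoA ligase, which turns succinyl-CoA into succinate and makes ATP at this step. LSC1 was at 6.81, 8.38 and 8.30 at 0h, then 8.87, 8.90 and 8.93 at 4h, followed by 6.07, 6.24 and 6.20 at 8h and finally 5.76, 6.07 and 5.55 at 30h. Array 0h A lay more than 1 log2 unit below the other 0h arrays for LSC1. LSC2 was at 8.27, 7.74 and 7.96 at 0h, then 8.32, 8.30 and 8.28 at 4h, followed by 5.43, 5.51 and 5.84 at 8h and finally 6.94, 6.50 and 6.42 at 30h. For LSC2, 0h A was instead the highest 0h array, and the 30h arrays lay between those of 0h and 8h.

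FUM1 encodes fumarase, which hydrates fumarate to malate and acts in both mitochondria and cytosol. Its levels were 7.15, 8.05 and 8.16 at 0h, followed by 9.28, 9.31 and 9.28 at 4h. At 8h they were 8.48, 6.91 and 7.72, and the 30h arrays read 7.35, 7.83 and 6.89. The 4h arrays were the highest for FUM1 and the other 3 times overlapped, with an SD of 0.79 at 8h against 0.02 at 4h.

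MDH1 encodes the mitochondrial malate dehydrogenase, which regenerates oxaloacetate. It was at 7.58, 8.86 and 8.30 at 0h, then 9.48, 9.49 and 9.26 at 4h, followed by 7.37, 7.06 and 7.39 at 8h and finally 7.00, 7.10 and 7.42 at 30h. Every 4h array was above every 0h array, and every 0h array above every late one. The 8h and 30h arrays overlapped (adjusted p = 0.893).

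Between 0h and 4h, 5 of the 10 genes rose past the threshold and 0 fell. They were FUM1, by 1.501 ± 0.38 on the log2 scale (± SE, n = 3 arrays per time), MDH1 by 1.17 ± 0.29, LSC1 by 1.07 ± 0.34, KGD1 by 0.98 ± 0.25 and CIT1 by 0.65 ± 0.21. Their limma adjusted p-values were 0.0121, 0.0108, 0.0375, 0.0119 and 0.0389. Of all tested genes 11.8% were called higher in this comparison and 11.8% were called lower. The median of the 10 differences was 0.72, against 0.02 for all tested genes, and for all 10 the 4h arrays lay above every 0h array, while 52.8% of tested genes had non-overlapping arrays in either direction.

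The other 5 did not pass: KGD2 was at 0.67 ± 0.23 (adjusted p = 0.0510), IDH1 at 0.77 ± 0.33 (0.101), ACO1 at 0.55 ± 0.29 (0.185), LSC2 at 0.31 ± 0.23 (0.362) and IDH2 at 0.15 ± 0.23 (0.670). Without 0h A, the difference of LSC1 was 0.56 (adjusted p = 0.0471) and that of CIT1 0.50 (0.0508), while KGD1, FUM1 and MDH1 were at 0.77, 1.18 and 0.83 and stayed called. The calls of KGD1, FUM1 and MDH1 held with any 1 of the 12 arrays left out. The call of CIT1 ended without 0h A, 0h B or any 4h array, and that of LSC1 without any 4h array or 8h B (highest adjusted p = 0.129 and 0.104). Leaving out an array of a time not compared, such as 8h B here, changes the pooled spread and degrees of freedom but not the difference.

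The deposited signals are not on 1 scale between arrays, and the direction from 0h to 4h rests on the normalisation. Unnormalised, the median tested gene was lower at 4h than at 0h by a log2 difference of -1.17, and the median member was at -0.22, with 4 members above 0 and 6 below, CIT1 among these at -0.26. All 10 members lay above the median gene on that scale too, and their median was 0.95 above it.

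Between 4h and 8h all 10 genes fell past the threshold, and every 8h array lay below every 4h array for each of them. On the log2 scale LSC1 fell by 2.73 ± 0.34 (limma adjusted p = 1.18e-05) and LSC2 fell by 2.71 ± 0.23 (4.93e-07), which are 6.62-fold and 6.52-fold lower levels. MDH1 fell by 2.14 ± 0.29 (2.14e-05), CIT1 by 1.90 ± 0.21 (3.6e-06), IDH1 by 1.90 ± 0.33 (0.000169) and IDH2 by 1.72 ± 0.23 (2.3e-05). FUM1 fell by 1.58 ± 0.38 (0.00229), ACO1 by 1.34 ± 0.29 (0.0011), KGD2 by 1.05 ± 0.23 (0.0013) and KGD1 by 0.88 ± 0.25 (0.00652). The measured falls thus ran from 1.84-fold for KGD1 to 6.62-fold for LSC1. At 8h LSC2 stood at 1.80 to 2.22 times background, IDH1 at 1.98 to 2.70, IDH2 at 2.16 to 3.22 and LSC1 at 2.23 to 3.25. The sizes of the falls of these genes are therefore uncertain.

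This comparison called 33.9% of all tested genes lower and 30.7% higher, and 79.2% had arrays that did not overlap, so a call alone sets the members little apart. The median of the 10 differences was -1.81, where that of all tested genes was -0.12. All 10 stayed called with each array left out in turn and under every other scaling, pseudocount and fit that was run. Unnormalised, the members' median was -2.28 relative to the median gene, which itself was at -1.28. The comparison spans the change in overall signal pattern between early and late arrays, and its part in the falls was not tested.

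**Figure D2:**
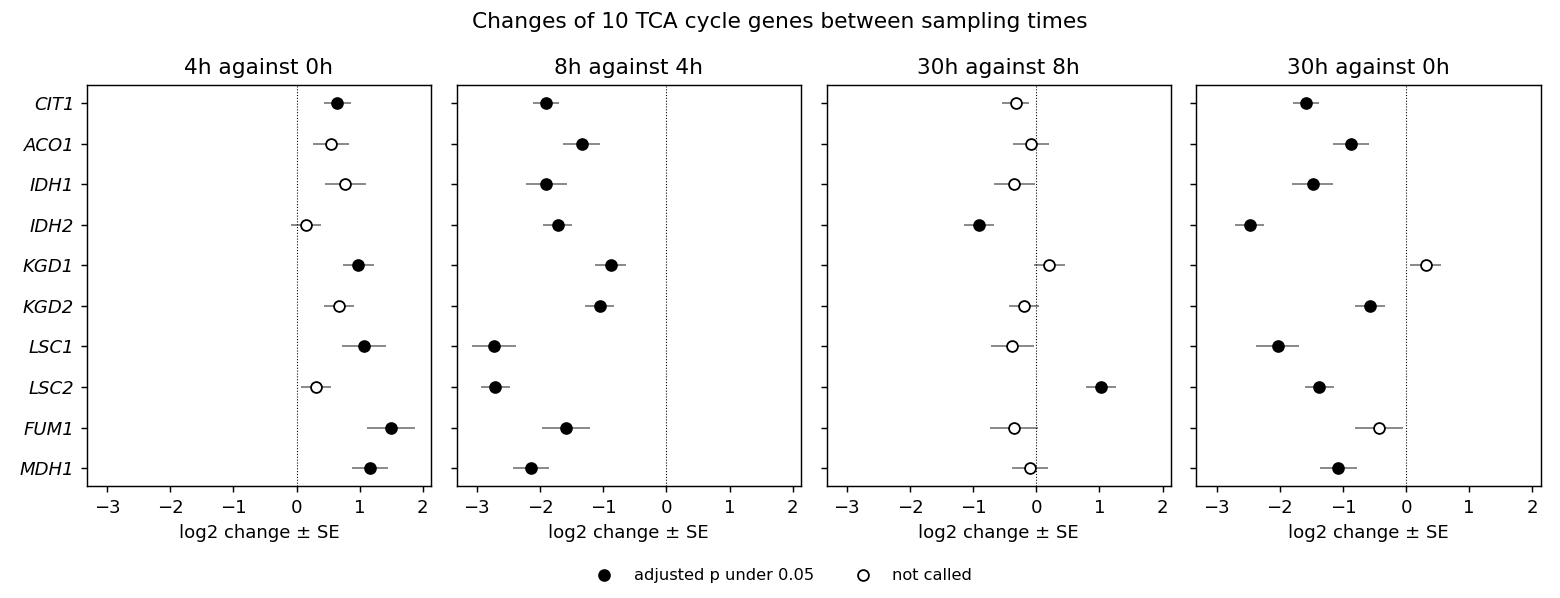
Log2 difference (horizontal axis, ± limma SE) of each of the 10 genes between consecutive sampling times and from 0h to 30h, with filled points for adjusted p under 0.05. In the quantile-normalised values all 10 points lie above 0 from 0h to 4h and below 0 from 4h to 8h, while from 8h to 30h only IDH2 and LSC2 are filled, on opposite sides, and at 30h against 0h KGD1 and FUM1 are open. On the deposited scale 6 of the 10 lie below 0 from 0h to 4h, and KGD1 lies at -2.03 at 30h against 0h.

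Between 8h and 30h 1 gene fell and 1 rose. On the log2 scale IDH2 fell by 0.91 ± 0.23 (limma adjusted p = 0.0464) and LSC2 rose by 1.03 ± 0.23 (0.0252). The lower signals of each were near background, IDH2 at 2.07 to 3.15 times at 30h and LSC2 at 1.80 to 2.22 times at 8h. Of all tested genes 2.73% were called lower and 0.909% higher. For both genes the arrays of the 2 times did not overlap, as also for CIT1 (-0.33 ± 0.21, adjusted p = 0.442) and for 23% of all tested genes. The other genes were between -0.38 ± 0.34 (LSC1) and 0.21 ± 0.25 (KGD1), and the median of the 10 was -0.26, with 8 below 0. On the deposited scale 9 of the 10 lay above 0, with a median of 0.36, below the median gene at 0.58.

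Neither call was firm. That of IDH2 ended in 10 of the 12 fits that left out 1 array (highest adjusted p = 0.164), all but those without 0h A or 30h C. That of LSC2 ended in 7 of the 12, those without any 4h array, 8h A, 8h B, 30h A or 30h B (highest adjusted p = 0.0871). Both ended on the deposited scale, with median centring, with a pseudocount of 100 and in a fit of the 2 times alone. Without a 4h array the differences themselves stayed at -0.91 for IDH2 and 1.03 for LSC2.

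Against 0h, 7 of the 10 genes were called lower at 8h and 0 higher, where 32.9% of all tested genes were called lower and 29.6% higher. The differences were -2.40 ± 0.23 for LSC2, -1.66 ± 0.34 for LSC1, -1.57 ± 0.23 for IDH2 and -1.26 ± 0.21 for CIT1, with adjusted p-values up to 0.000856. IDH1 was at -1.13 ± 0.33 (0.00801), MDH1 at -0.97 ± 0.29 (0.00939) and ACO1 at -0.79 ± 0.29 (0.0287). LSC2, LSC1, IDH2 and IDH1 were near background at 8h, so the sizes of their differences are uncertain. KGD1, KGD2 and FUM1 were not called, at 0.10 ± 0.25, -0.38 ± 0.23 and -0.08 ± 0.38, and KGD2 was called lower without 0h A (-0.56, adjusted p = 0.0251). The call of MDH1 ended without 0h B (0.0529), and the call of ACO1 ended if 0h B, 0h C, 8h B or 8h C was left out, with p-values of at most 0.127 after adjustment.

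At 30h, 8 of the 10 were lower than at 0h, beside 33.3% of all tested genes called lower and 31.2% called higher. IDH2 had the lowest value, -2.48 ± 0.23, followed by LSC1 at -2.03 ± 0.34 and CIT1 at -1.58 ± 0.21. At 30h IDH2 stood at 2.07 to 3.15 times background and LSC1 at 2.89 to 4.07, so the sizes for IDH2 and LSC1 are uncertain. KGD2 was called at -0.57 ± 0.23 (adjusted p = 0.0437), a call that ended in 8 of the 12 fits without 1 array, all but those without 0h A, 8h A, 8h C or 30h B. ACO1 was at -0.87 ± 0.29, and its call ended without 0h C or 30h C (highest adjusted p = 0.0700). KGD1 was at 0.31 ± 0.25 (0.286) and FUM1 at -0.43 ± 0.38 (0.333), so for these 2 genes no difference from the inoculum was shown at either late time on the normalised scale. On the deposited scale all 10 were called lower than at 0h at both late times, with KGD1 at -2.74 (8h) and -2.03 (30h), where the median gene was at -2.48 and -1.86.

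Against 4h, all 10 were lower at 30h, beside 34.5% of all tested genes called lower and 32.4% called higher, with a median of -2.08. LSC1 differed most, by -3.10 ± 0.34, or 8.59-fold, and KGD1 least, by -0.67 ± 0.25 (adjusted p = 0.0265). The size for LSC1 is uncertain, since its 30h signals were at 2.89 to 4.07 times background. The call of KGD1 ended without any 4h array, 30h A or 30h C (highest adjusted p = 0.0703). The comparisons with a time in common share its arrays and are not independent of each other.

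For the 3 enzymes with 2 members, the log2 difference between the subunit genes was taken within each array and its change over the 4 times tested by an exact permutation test over the 15400 arrangements of the arrays, adjusted over the 3 pairs. The zero of such a difference has no meaning, since the probes differ, but its change between times does. This test was chosen after the levels had been seen.

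The difference KGD2 minus KGD1 had a lower mean at each later time. It was 0.28, 0.29 and 0.11 on the 0h arrays, then -0.12, -0.06 and -0.06 at 4h, followed by -0.41, -0.09 and -0.27 at 8h and finally -0.56, -0.58 and -0.83 at 30h. All 0h arrays lay above all others and all 30h arrays below, while 4h and 8h overlapped. The means were 0.23 ± 0.10, -0.08 ± 0.03, -0.26 ± 0.16 and -0.66 ± 0.15 (SD, n = 3), with an exact permutation p of 0.00013 (adjusted 0.00039). On the deposited scale the means were 0.28, -0.10, -0.18 and -0.48 and the exact p was 0.000195. A factor common to all signals of an array cancels from such a difference. The narrower spread of signals on the 8h and 30h arrays does not cancel.

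LSC2 minus LSC1 was 1.46 on 0h A but -0.64 and -0.34 on 0h B and C. It was -0.55, -0.60 and -0.65 at 4h, then -0.64, -0.73 and -0.37 at 8h and finally 1.18, 0.42 and 0.87 at 30h. The 30h arrays lay above all others except 0h A. At 8h both genes were near background, LSC2 at 1.80 to 2.22 times and LSC1 at 2.23 to 3.25 times. The exact permutation p was 0.0605 (adjusted 0.0908) with all arrays. Unadjusted, the exact p was 0.0134 without 0h A, 0.0442 without 0h B and 0.0604 to 0.115 without any 1 of the other arrays.

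IDH2 minus IDH1 was 1.34, 0.55 and 0.48 at 0h, then 0.10, 0.17 and 0.24 at 4h, followed by 0.56, 0.33 and 0.16 at 8h and finally -0.40, -1.19 and 0.97 at 30h. The 30h arrays spanned a wider range than the other 9 together, and the change over time did not pass (exact permutation p = 0.322, adjusted 0.322). At 30h both genes were near background, IDH1 at 1.84 to 3.97 times and IDH2 at 2.07 to 3.15 times. Without 30h C the exact p was 0.00104, and without any 1 of the other arrays it was 0.337 to 0.614, all unadjusted.

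**Figure D3:**
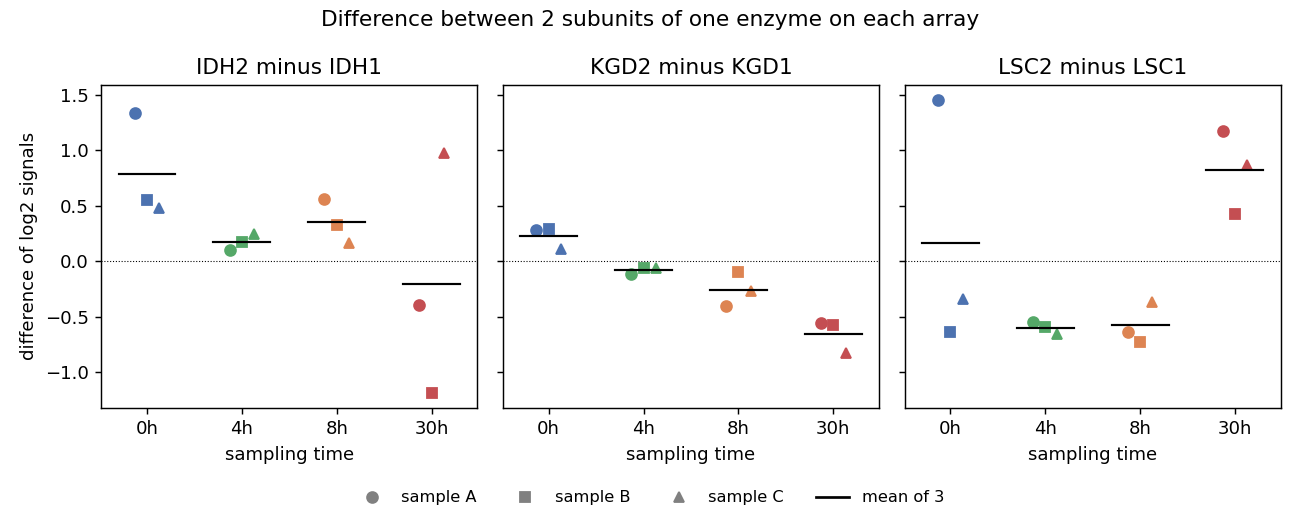
Log2 difference between the 2 subunit genes of an enzyme within each array (vertical axis) at the 4 sampling times, with 1 point per array and a bar at the mean of 3. KGD2 minus KGD1 declines from 0.23 at 0h to -0.66 at 30h, LSC2 minus LSC1 is high at 30h and on 0h A, and IDH2 minus IDH1 scatters at 30h.

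All 4 subunit genes of succinate dehydrogenase, the remaining enzyme of the cycle and complex II of the respiratory chain, fell between 4h and 8h as well, SDH4 by 2.23 ± 0.25, SDH2 by 1.85 ± 0.46, SDH1 by 1.69 ± 0.28 and SDH3 by 1.09 ± 0.27. From 0h to 4h SDH2, SDH1 and SDH4 rose, by 1.46 ± 0.46, 1.32 ± 0.28 and 0.75 ± 0.25, and SDH3 was at 0.38 ± 0.27. SDH4 was at -0.12 on the deposited scale, and its call ended in 8 of the 12 fits without 1 array, all but those without 0h B, 8h A, 30h A or 30h C. Without 0h A the rise of SDH2 was 0.73, and its call ended without any of the 4h arrays.

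Genes that feed the cycle with acetyl-CoA and oxaloacetate fell too between 4h and 8h. Of the 5 genes of pyruvate dehydrogenase, which makes acetyl-CoA in the matrix, PDA1 fell by 2.58 ± 0.38, PDB1 by 2.50 ± 0.23, LAT1 by 2.42 ± 0.25 and LPD1 by 1.84 ± 0.24, and PDX1 was at -0.02 ± 0.36. LPD1 is also the E3 component of 2-oxoglutarate dehydrogenase. YMR31, also named KGD4, the gene of a further subunit of that complex, was at 0.80 ± 0.38 (adjusted p = 0.0812) between 4h and 8h and at 1.73 ± 0.38 between 4h and 30h, where it was called higher while KGD1 and KGD2 were called lower. At 8h against 4h YMR31 was called higher without 0h A (adjusted p = 0.00177) and in a fit of the 2 times alone (0.00507), but lower on the deposited scale (-1.23, adjusted p = 0.0300). From 0h to 4h PDA1, LAT1 and LPD1 rose, by 1.24 ± 0.38, 0.97 ± 0.25 and 0.95 ± 0.24. Without 0h A the rise of PDA1 was 0.67, and its call ended without any 4h array, that of LAT1 without 4h B and that of LPD1 without 4h C. Both pyruvate carboxylase genes, for the enzyme that makes oxaloacetate from pyruvate, were called: PYC2 fell by 2.14 ± 0.32 and PYC1 fell by 0.9996 ± 0.27.

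The genes of the mitochondrial pyruvate carrier did not move together. MPC2 fell by 2.02 ± 0.30 and MPC3 by 3.03 ± 0.44, whereas MPC1, whose protein pairs with either, was at 8.14, 7.98 and 7.89 at 4h and 9.05, 9.87 and 10.12 at 8h. MPC1 was called higher by 1.67 ± 0.26, but it was at -0.61 on the deposited scale, above the median gene at -1.28, and not called with median centring (0.53, adjusted p = 0.0800).

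The listed isoenzyme genes, of which 7 were tested, have products that catalyse the same reactions, most of them in other compartments or with another cofactor. Between 4h and 8h IDP2, for the cytosolic NADP-dependent isocitrate dehydrogenase, had no 8h array above background, which makes its fall at least 10.6-fold (adjusted p = 1.89e-07). The peroxisomal MDH3 fell by 2.39 ± 0.25 and CIT2 by 0.88 ± 0.30, the latter not called without 4h B, 4h C or 8h C. CIT3, a mitochondrial citrate and methylcitrate synthase, was called higher by 2.09 ± 0.39. Its signals were near background, at 1.07 to 1.83 times at 4h and 1.35 to 2.85 times at 8h, so that size is uncertain. MDH2, IDP1 and IDP3 were not called, though IDP1 and MDH2 were called lower on the deposited scale (-1.91 and -1.85) and with median centring (-0.77 and -0.71). IDP3 was called lower on the deposited scale (-1.62), in a fit of the 2 times alone and without 0h A or 30h A (adjusted p = 0.0411 and 0.0362). Between 0h and 4h IDP2 fell by 1.32 ± 0.32 and the cytosolic MDH2 by 0.96 ± 0.20, whereas the mitochondrial IDP1 and the peroxisomal IDP3 and MDH3 rose, by 1.51 ± 0.22, 1.42 ± 0.30 and 0.87 ± 0.25, that of MDH3 not called without 0h C or any 4h array. From 8h to 30h IDP2 was at least 2.71-fold higher and MDH2 rose by 1.03 ± 0.20, and no other listed gene outside the 10 was called. Both calls ended on the deposited scale (adjusted p = 0.0682 for IDP2 and 0.384 for MDH2) and with median centring (0.0884 and 0.122), and that of IDP2 with a pseudocount of 100 (0.243).

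The listed regulators gave no common direction. Between 0h and 4h HAP5 rose by 1.91 ± 0.30 and HAP2 by 0.995 ± 0.28, a call that ended without any 4h array. RTG1 was above background on 1 of 3 arrays at 0h, so no size is given for it, and its call as higher at 4h ended with a pseudocount of 100, in a fit of the 2 times alone and without 4h A or 4h C (adjusted p = 0.103, 0.0662, 0.0688 and 0.0557). The rises named from 0h to 4h in these lists were not called on the deposited scale. Between 4h and 8h HAP1, for the haem-responsive activator, likewise had no 8h array above background, a fall of at least 6.89-fold (adjusted p = 3.38e-05), and HAP5 fell by 1.26 ± 0.30. HAP3 was called higher by 1.999 ± 0.32, and at 0.93 on the deposited scale it was not (adjusted p = 0.110). HAP4, the activating subunit, was at 0.08 ± 0.44 and HAP2 at 0.04 ± 0.28, both below 0 on the deposited scale (-1.97 and -1.58). Of the 4 retrograde genes MKS1, for a negative regulator, fell by 1.86 ± 0.31, and RTG3 was at 0.96 ± 0.37 and called higher, which was lost on the deposited scale (-0.19) and without any 4h array, 8h A or 8h C.

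**Figure D4:**
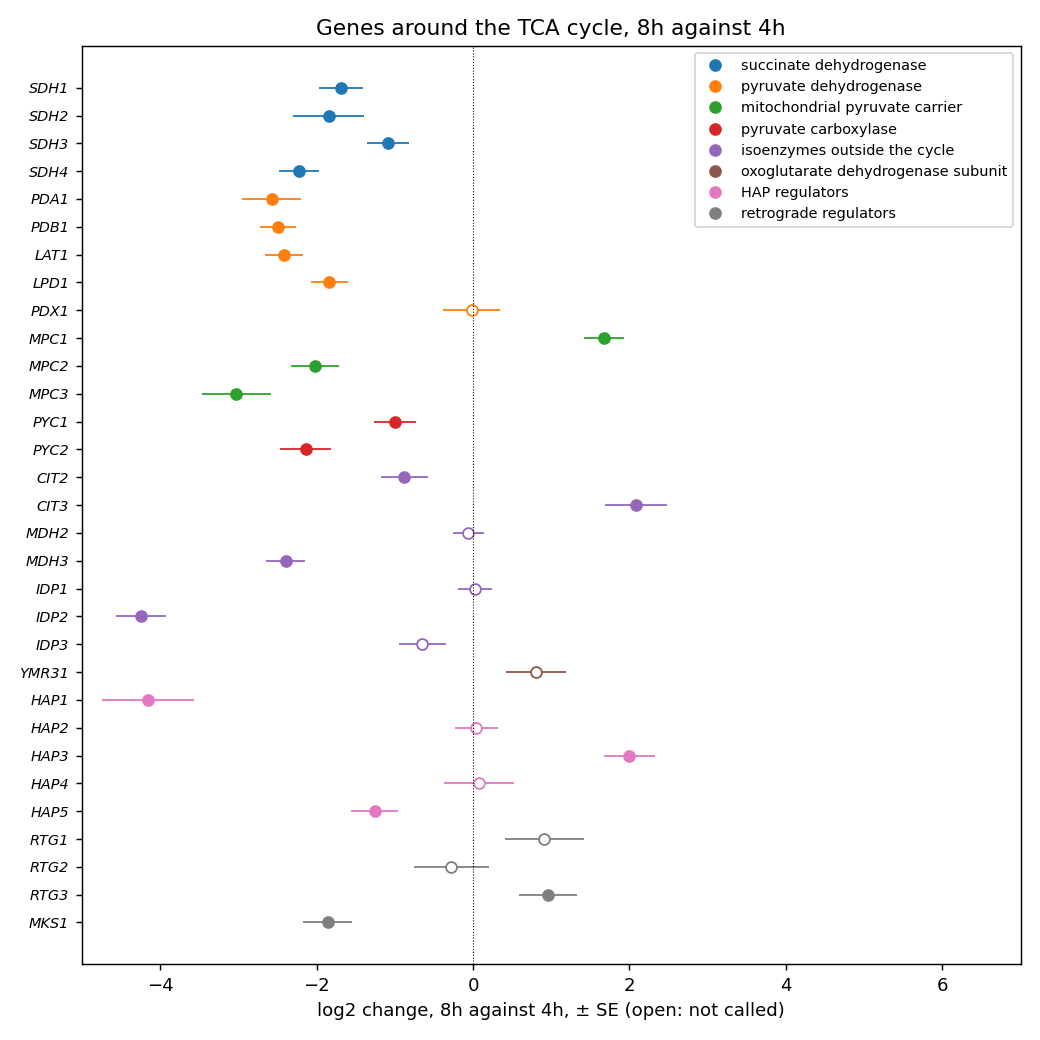
Log2 difference between 4h and 8h (horizontal axis, ± limma SE, quantile-normalised values) of 31 genes around the TCA cycle, coloured by list, with filled points for adjusted p under 0.05. Most genes of succinate dehydrogenase, pyruvate dehydrogenase and pyruvate carboxylase lie left of 0, and MPC1 lies right of 0, at 1.67, but left of it on the deposited scale. IDP2 and HAP1 were not above background at 8h, so their measured points are not bounds.

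Over the 12 arrays the 10 genes followed a common course to different degrees. The Pearson correlation over the 12 arrays between each gene and the median of the other 9 ran from 0.623 for KGD1 to 0.984 for LSC1. Within the 6 late arrays alone it ran from -0.41 for IDH2 to 0.82 for FUM1, and it was below 0 for LSC2, MDH1 and CIT1 too. Within the 0h and 4h arrays alone it ran from 0.26 for LSC2 to 0.99 for KGD2. The values over 12 arrays span the change in overall signal pattern between early and late arrays, whose part in them was not tested. The genes of the array shared their hybridisations, and no p is attached to these values.

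Outside the 10, the genes whose profile over the 12 arrays was most like the members' median profile were PDI1, for protein disulphide isomerase (r = 0.992), LAT1, for the E2 component of pyruvate dehydrogenase (0.990), YNL134C (0.989), TUB2, for beta-tubulin (0.987), and RPT5, for a proteasome ATPase (0.986). Over the 8h and 30h arrays alone their r was 0.725, 0.646, 0.485, 0.741 and 0.777. The least like were JHD2, for a histone demethylase (-0.988), PSF3, for a subunit of the GINS replication complex (-0.987), ACM1 (-0.986), GPI18 (-0.985) and ASG1 (-0.984). LAT1 was thus the only one of these 10 that belongs to a list given above.

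The array also carries S. pombe probe sets with the names of 6 of the members. Those named idh2, kgd2, fum1 and lsc1 were above the S. pombe 95th percentile on 0 of 12 arrays. Those named idh1 and cit1 exceeded it on 6 and 3 arrays, with signals of at most 28.9 and 18.7.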

How the data were processed

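Each deposited column holds linear intensity signals by probe set, for 12 single-colour arrays. Per the submitters' processing notes GCOS 5.0 and MAS5 were used, and parameters are not given in the sources used here. Array scales differ in the deposited table: the 2% trimmed mean was 100.07 to 100.08 at 4h and 22.6 to 377 elsewhere. Log2 signals were therefore quantile normalised over the tested genes, a choice made after an earlier look at these data had found the scales to differ. Of 5635 genes, 5503 passed the S. pombe 95th percentile of mean log2 signal, at a signal of 7.74, and 132 were left out as dim. The fit used limma 3.58.1 under R 4.3.3, by lmFit, contrasts and a trended eBayes, with a coefficient per time over all 12 arrays (8 residual degrees of freedom). A call is a two-sided Benjamini-Hochberg p under 0.05 across 5503 genes in 1 of 6 comparisons. The normalisation and the limma fit were run on simulated data for 4h against 0h, with the same spread of a gene at all times. The simulation did not cover arrays of different signal range, the permutation test or the fold bounds. For a gene under the S. pombe threshold on all 3 arrays of a time, "at least N-fold" sets the bright mean against the mean, per dim array, of the higher of that threshold and its own value.

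The members and lists were chosen with earlier results of these data known. Named were all members, succinate dehydrogenase, the lists of pathway genes in whole or by their largest changes, and the 5 genes most and least like the members' median profile. Some list genes were named after their values were seen. CB11 is a hybrid, and its RNA was read by probes for S. cerevisiae. How far these probes read gene copies from the other parent was not tested. Close relatives such as CIT1 and CIT2 may also share probes. Outside the members, 31 listed genes were tested. The number of arrays limits the precision. Gene sequences were not used here.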

Additional observations from a re-analysis of the deposited data

How the results depend on the processing

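The 10 members stayed called lower at 8h against 4h in every alternative run, and the counts for both late times against 0h (5 to 10 at 8h, 6 to 10 at 30h) and for 30h against 4h (9 to 10) stayed within 1.5 times of theirs. At 4h against 0h, the 5 calls became 0 on the deposited scale, 8 with median centring and 3 to 7 with 1 array left out (3 without any of the 4h arrays). At 30h against 8h, the 2 calls became 0 on the deposited scale, with median centring, with a pseudocount of 100 and in a fit of the 2 times alone. They became 1 with a pseudocount of 16, with the replicate block and without the trend, and 0 to 2 with 1 array left out. Correlations of same-letter deviations ran from -0.21 to 0.24. They cannot decide whether the letters pair the samples, since arrays of different letters were not compared in this way. With the letter as a replicate block the members called numbered 4 at 4h against 0h, 1 at 30h against 8h, 7 for both late times against 0h, and 10 for both against 4h.

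Most signs that turned with a call on either scale did so on the deposited scale, on which the median gene itself shifts. At 4h against 0h these were CIT1 at -0.26 (limma adjusted p = 0.684), SDH4 at -0.12 (0.849) and CIT3 at -1.25 (0.0493). At 8h against 4h they were MPC1 at -0.61 (0.224), IDP1 at -1.91 (0.00149), YMR31 at -1.23 (0.0300), HAP2 at -1.58 (0.0150), HAP4 at -1.97 (0.0134) and RTG3 at -0.19 (0.771). KGD1 was at -2.74 at 8h (7.9e-05) and -2.03 at 30h (0.00185) against 0h. With median centring IDP1 was at -0.77 at 8h against 4h (0.00595). Differences called on neither scale turned too: among the members, 5 more at 4h against 0h and 7 at 30h against 8h on the deposited scale, KGD1 against 0h with median centring (-0.41 at 8h and -0.26 at 30h), and, with 1 array left out, ACO1, IDH1 and FUM1 at 30h against 8h and KGD1 and FUM1 at 8h against 0h. Over all genes, the 647 higher and 648 lower at 4h against 0h became 45 and 2609 on the deposited scale, and without any of the 4h arrays 322 to 355 and 358 to 385, while median centring gave 1025 higher. On the deposited scale the 1692 and 1863 at 8h against 4h became 603 and 2842, the 1629 and 1812 at 8h against 0h became 221 and 4303, the 1715 and 1830 at 30h against 0h became 354 and 3635, and the 1781 higher at 30h against 4h became 971. At 30h against 8h the 50 and 150 became 3 and 2 on that scale, 6 and 43 with median centring, and 258 and 314 without 0h A, with 25 to 27 higher without 1 of 5 other arrays, 106 higher with a pseudocount of 100 and 99 lower without 8h A. Of the exact p-values for subunit pairs, KGD2 minus KGD1 stayed under 0.05 throughout (6.49e-05 to 0.000974), LSC2 minus LSC1 also passed without 0h B (0.0442), and IDH2 minus IDH1 passed with a pseudocount of 100 (0.0373).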
